A study of Mus musculus with 10 samples.

Results

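The binding of the transcription factor p63 was examined at 8 genes of the epidermal basement membrane in mouse keratinocytes. The genes were Lama3, Lamb3, Lama5, Lamb1, Lamc1, Col7a1, Fras1 and Frem2. A p63 peak was assigned to a gene if its midpoint lay inside the gene or within 50 kb of either end. That gave 25 of the 8451 peaks in the authors' list (0.296%), and no peak was assigned to more than 1 of the 8 genes. The list came from chromatin immunoprecipitation followed by sequencing (ChIP-seq) with the p63 antibody 4A4 in the mouse keratinocyte lines MK1 and MK2, which the labels call similar, with 1 library per line. The authors joined both libraries into 1 list, which holds positions on mm10 and no peak height. The values below therefore have no replicate spread and no known read depth. Histone mark and input libraries of the same lines were not analysed here. The labels used here name no strain, age or treatment of the lines. The basal keratinocyte genes Krt5, Krt14, Trp63, Itga6, Itgb4 and Col17a1 all had a peak by the same rule, as did 40.7% of all protein-coding genes. Peaks do not measure expression and do not identify a cell type.

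Laminins are proteins of 1 alpha, 1 beta and 1 gamma chain, and they form the sheet on which basal keratinocytes sit. Laminin-332 contains the alpha chain of Lama3 and the beta chain of Lamb3, and it ties the hemidesmosomes of basal cells to the membrane. Loss of either chain causes junctional epidermolysis bullosa, a blistering disease. Laminin-511, made from Lama5, Lamb1 and Lamc1, is the more widespread form and is needed for hair follicle growth. Col7a1 encodes type VII collagen, which forms the fibrils that anchor laminin-332 to the dermis. Fras1 and Frem2 encode large extracellular proteins of the Fraser complex, which holds embryonic skin to the tissue below. p63 is the master regulator of stratified epithelia.

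A p63 peak spanned a transcript start of Lamb3, and another lay just upstream of the start of Lama5. RefSeq promoter sequences (GRCm38.p6, the assembly of mm10) were matched for 5 of the 8 genes, namely Lamb3, Lama5, Lamb1, Col7a1 and Frem2. Each window ran from 250 bases before to 50 bases after a start, and Lamb3 had 2 such windows. A peak overlapped 3 of these 6 windows, which belonged to these 2 genes, against 1.14% of 21262 promoter windows of protein-coding genes (95% Wilson interval 1.00 to 1.29%). The 2 Lamb3 windows overlap each other and were met by the same peak, so the 3 windows stand for 2 peaks. The 250 bases before each of these starts are given 5′ to 3′ on the gene's own strand, with the bases inside a p63 peak in capitals, because they show where the peak meets the start. The Lamb3 sequence is chr1:193301744-193301993 on the plus strand, and the base after its last letter begins the transcript. The Lama5 sequence is chr2:180225860-180226109 on the minus strand, and again the transcript begins with the next base.
Lamb3: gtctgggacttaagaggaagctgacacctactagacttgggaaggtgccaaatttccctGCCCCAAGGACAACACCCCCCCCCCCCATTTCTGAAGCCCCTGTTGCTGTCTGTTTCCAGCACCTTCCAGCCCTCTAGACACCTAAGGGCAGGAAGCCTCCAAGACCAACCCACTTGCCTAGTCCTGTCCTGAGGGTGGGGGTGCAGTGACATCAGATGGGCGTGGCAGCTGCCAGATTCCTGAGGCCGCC
Lama5: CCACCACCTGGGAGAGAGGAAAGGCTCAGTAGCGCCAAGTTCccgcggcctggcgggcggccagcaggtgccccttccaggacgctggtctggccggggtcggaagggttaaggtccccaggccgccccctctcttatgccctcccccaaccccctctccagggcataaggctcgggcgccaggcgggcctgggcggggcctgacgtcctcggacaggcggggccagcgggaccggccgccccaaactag

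The capitals differ in where they lie. At Lamb3 the 239 bp peak fell wholly inside the promoter window, with 191 of its bases before the start and the rest after it. At Lama5 the capitals are the 42 bases farthest from the start, which are the near edge of a 215 bp peak that reaches away from the gene. A pair of p53-family half-site cores was looked for in each 300-base window: 2 copies of CAAG or CATG or CTAG or CTTG with 6 bases between them, on both strands, overlaps allowed. None of the 6 windows of these genes held such a pair. Of all 21262 windows 6.49% did, and of the 242 windows overlapped by a peak 19.4% did. At least 1 CATG, which is also 1 of these cores, was found in 2 of the 6 windows, with 2 copies each in the second Lamb3 window and that of Lamb1. It was found in 56.3% of all windows and in 51.2% of those overlapped by a peak. These letters are a description of short windows and do not cover the parts of peaks that lie outside them.

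All 8 genes had at least 1 peak, and Lama3 had the most. By the same rule 40.7% of 21775 protein-coding genes had a peak (95% Wilson interval 40.0 to 41.4%). The counts were 9 at Lama3, 4 at Lama5, 3 each at Lamc1 and Fras1, 2 each at Lamb3 and Col7a1, and 1 each at Lamb1 and Frem2. As many peaks as at Lama3 were found at 0.124% of protein-coding genes, as many as at Lama5 at 4.74%, and 3 or more at 9.69%. Longer genes have wider windows, so each gene was also set beside genes with 0.5 to 2 times its length. Among those, 0.685% reached the count of Lama3, 5.50% that of Lama5, 15.2% that of Lamc1 and 19.1% that of Fras1. The counts of Lamb3 and Col7a1 were reached by 23.5% and 21.5% of genes of like length. Those of Lamb1 and Frem2 were reached by 48.1% and 50.8%. At least 1 peak, the count reached by Lamb1 and Frem2, was therefore present at about every second gene of their length. Closer in, 8 of the 8 genes had a peak within 25 kb (29.7% of all protein-coding genes), 7 within 10 kb (21.3%) and 6 inside the gene itself (13.4%). Within 100 kb it was 8 of 8 (55.2%). The 8 genes were chosen with earlier results of these data known, so these shares describe them and test nothing.

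**Figure D1:**
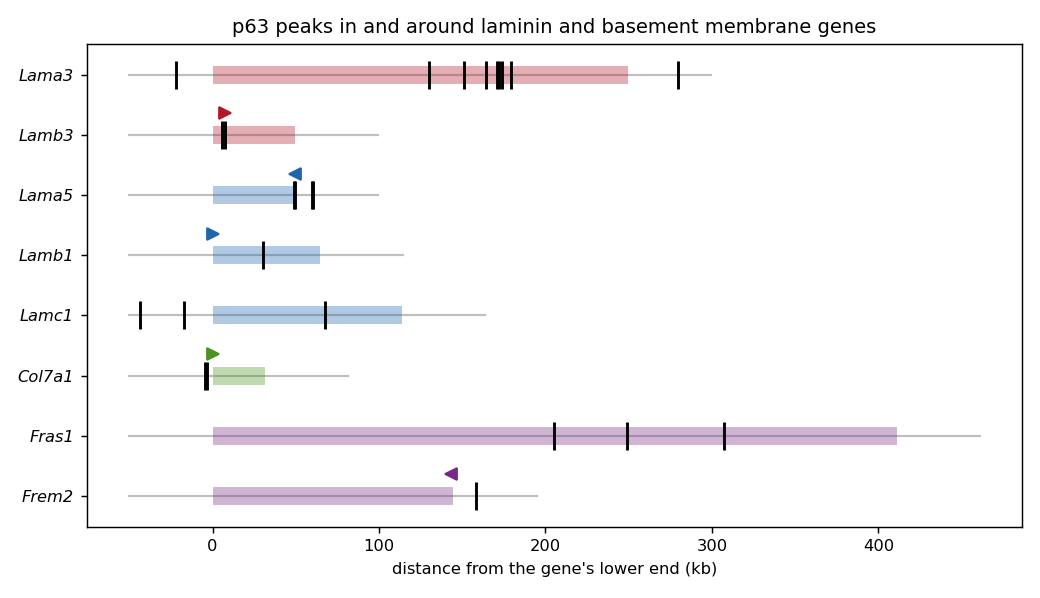
Each row is a gene drawn to scale from its lower end (x axis, kb), with the gene body as a bar, the 50 kb flanks as a grey line and each p63 peak midpoint as a black tick; triangles mark the first transcript start and its direction where RefSeq promoters list one. Lama3 carries a group of ticks just above the middle of its body, and Lamb3 and Lama5 have ticks at or near the start.

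Peaks at Lama3 were gathered in a stretch just above the middle of the gene. Lama3 spans chr18:12333417-12583013, a length of 249.6 kb, and the strand of the gene is not in the table used. Of its 9 peaks, 7 lay inside the gene, between 129.9 and 179.3 kb from its lower end, which is 52.0 to 71.8% of the way along it. Inside the gene, none lay below or above that stretch, and the gap above it was 99.7 kb. From the lower side, the first was at chr18:12463130-12463497 (368 bp) and the second at chr18:12484301-12484505 (205 bp). A tight group of 5 followed. Its peaks were at chr18:12497760-12497978 (219 bp), chr18:12503957-12504322 (366 bp), chr18:12505391-12505724 (334 bp), chr18:12507281-12507596 (316 bp) and chr18:12512431-12513025 (595 bp). The group spanned 15.27 kb, with edge-to-edge gaps of 5.98, 1.07, 1.56 and 4.83 kb. When peaks with midpoints within 10 kb were joined across the genome, 19 of 7060 sites (0.269%) held 5 or more peaks. Lama3 is known to make a long and a short alpha chain from separate promoters. The table does not place the internal promoter, so whether the group lies at it was not tested. The last 2 peaks lay outside the gene. One was 22.2 kb below the lower end, nearest to Ankrd29, and the other was 29.9 kb above the upper end, inside the neighbouring gene Ttc39c.

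Lamb3, the beta chain of laminin-332, had 1 peak at its first listed start, 1 upstream of that start and no others. The gene spans chr1:193294353-193343878, and its length is 49.5 kb. The peaks were at chr1:193300080-193300319 (240 bp) and chr1:193301803-193302041 (239 bp), with 1.48 kb between them. Relative to the first listed start, at base 193301994, their midpoints lay 1.79 kb and 0.072 kb upstream. Both count as inside the gene because the annotated extent begins 7.64 kb before that start. No other peak lay within 72.8 kb of the gene on the lower side or within 164.2 kb on the upper side. Both peaks were narrow, and 76.3% of all peaks were at least as wide as the one at the start.

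Lama5 carried the second-largest group among the 8 genes, and it lay at and upstream of the start. The gene spans chr2:180176373-180225904 (49.5 kb) and is read from its upper end, with the start at base 180225859. The 4 peaks formed 1 site of 12.43 kb by the 10 kb rule, and 67 of 7060 sites (0.949%) held as many peaks. The widest gap in this site, 9.55 kb edge to edge, was close to the 10 kb limit. A slightly shorter limit would leave 2 pairs, and 1068 of 7060 sites (15.1%) held 2 or more peaks. One peak, chr2:180224937-180225200 (264 bp), lay 0.79 kb downstream of the start. The second, chr2:180226068-180226282 (215 bp), lay 0.32 kb upstream of it and overlaps the sequence printed above. The other two lay side by side at 10.2 and 11.1 kb upstream, at chr2:180235829-180236212 (384 bp) and chr2:180236490-180237368 (879 bp), 0.277 kb apart. The 879 bp peak was the widest at any of the 8 genes, and 0.615% of all peaks were at least as wide. In all 4 cases Lama5 was the nearest protein-coding gene.

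The beta and gamma chains of laminin-511 had few peaks of their own. Lamb1, at chr12:31265146-31329644 (64.5 kb), had a single peak at chr12:31295537-31295953 (417 bp). It lay inside the gene, 30.5 kb downstream of the start, and the next peak in either direction was at least 120.2 kb away. Lamc1, at chr1:153218922-153332786 (113.9 kb), had 1 peak inside it at chr1:153286213-153286495 (283 bp), 67.4 kb above its lower end. The other 2 peaks counted for Lamc1 lay outside it, beyond its lower end. One, 586 bp wide, was 17.4 kb below that end, and 5.38% of all peaks were at least as wide. The other, 312 bp wide, was 43.8 kb below it. Lamc1 was the nearest protein-coding gene only of the peak inside it, and the other 2 were nearer to another gene.

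Col7a1 had a close pair of peaks before its start. The gene spans chr9:108953586-108984875 (31.3 kb), and the table lists its start at the lower end. The peaks were at chr9:108948934-108949642 (709 bp) and chr9:108949928-108950334 (407 bp), 0.285 kb apart, with midpoints 4.30 and 3.46 kb upstream. Of all peaks, 2.08% were at least as wide as the first. Both were nearer to the end of the adjacent gene Uqcrc1, at 0.353 and 0.490 kb, than to Col7a1, and the midpoint of the first lay inside Uqcrc1. No peak lay inside Col7a1.

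The Fraser complex genes had isolated peaks only. Fras1, at chr5:96373777-96784733, is the longest of the 8 genes at 411.0 kb. Its 3 peaks lay inside it, at chr5:96578715-96579005 (291 bp), chr5:96622649-96622915 (267 bp) and chr5:96680919-96681208 (290 bp). They were 43.6 and 58.0 kb apart and fell in the stretch from 49.9 to 74.8% of the gene's length. Frem2, at chr3:53513938-53658593 (144.7 kb), is read from its upper end. Its single peak at chr3:53671854-53672114 (261 bp) lay 14.6 kb upstream of the start. None of these 4 peaks was as wide as the median of all peaks.

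Width and spacing varied between the genes. The median width of the 25 peaks was 316 bp, beside 305 bp for all 8451 peaks, with quartiles of 264 and 384 bp beside 242 and 392 bp. Of the 25, 14 were wider than the median of all peaks, 6 were at or above the upper quartile and 5 at or below the lower one. The widest ones stood next to a narrower neighbour at Lama5 and Col7a1. Of the 25 peaks, 11 (44.0%) had another peak within 2 kb, edge to edge, a distance chosen after the values were seen. Of all peaks 11.1% did. These 11 were 4 at Lama5, 3 at Lama3 and 2 each at Lamb3 and Col7a1. At the other 4 genes the nearest peak was always farther than 2 kb away. Peaks of 1 group share their locus and are not independent of each other.

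**Figure D2:**
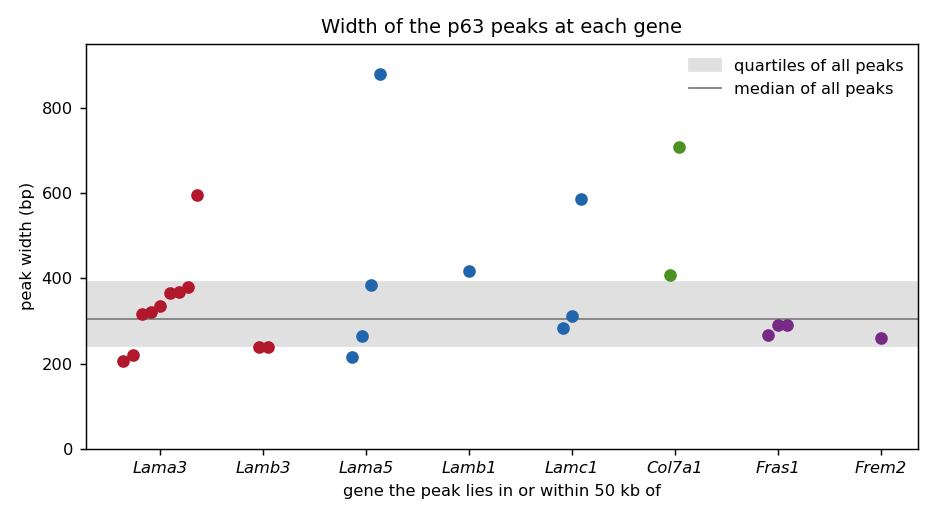
Width of each p63 peak (y axis, bp) at the 8 genes (x axis), 1 point per peak, with the quartiles (grey band, 242 to 392 bp) and median (line, 305 bp) of all 8451 peaks. The points above the band are 1 at Lama3, Lama5, Lamb1 and Lamc1 each and both at Col7a1, while Lamb3 is just below it.

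For the 5 genes with a listed start, the peaks could be placed along the direction of transcription. Of their 10 peaks, 8 lay upstream of the first start, 2 lay between start and end, and 0 lay past the gene's end. Over the 7043 protein-coding genes with a listed start and a peak, 38.5% of 13546 gene and peak pairs lay upstream, 24.9% between start and end and 36.6% past the end. The 8 upstream peaks came from 4 loci, with 3 at Lama5, 2 each at Lamb3 and Col7a1 and 1 at Frem2.

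Laminin-332 and laminin-511 chains were then set side by side, with laminin-332 represented only by its alpha and beta chain genes. Lama3 and Lamb3 together had 11 peaks (exact 95% Poisson interval 5.49 to 19.7) in 499.1 kb of gene and flank. Lama5, Lamb1 and Lamc1 had 8 (3.45 to 15.8) in 527.9 kb. That is 2.20 peaks per 100 kb (1.10 to 3.94) and 1.52 per 100 kb (0.654 to 2.99). The windows of all protein-coding genes held 0.532 per 100 kb. The intervals cover counting error only and are too narrow for grouped peaks. With 1 list and no replicates the difference between the sets was not tested. Counting a peak only for its nearest gene gave 9 for laminin-332 and 6 for laminin-511.

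Counts inside the genes were farther apart. Inside the genes were 9 of 11 peaks for laminin-332 (81.8%, exact Poisson interval of the count 4.12 to 17.1) and 3 of 8 for laminin-511 (37.5%, interval 0.619 to 8.77). Gene bodies made up 299.1 of the 499.1 kb for laminin-332 and 227.9 of the 527.9 kb for laminin-511. Per 100 kb of gene body there were 3.01 and 1.32 peaks, beside 0.438 over all protein-coding genes. The difference between the 2 sets was not tested here either. Of the 9, Lama3 gave 7, and the 2 of Lamb3 are inside only by the wide annotated extent. The median width was 321 bp for laminin-332 (205 to 595 bp) and 348 bp for laminin-511 (215 to 879 bp), and the ranges overlap. Joining peaks within 10 kb left 6 sites for laminin-332 and 5 for laminin-511. A neighbour within 2 kb was present for 5 of 11 peaks (45.5%) at laminin-332 and 4 of 8 (50.0%) at laminin-511. All 4 of the latter were at Lama5, and the other laminin-511 peaks were at least 26.0 kb from their neighbours. Within each set the alpha chain had the most peaks, 9 of 11 at Lama3 and 4 of 8 at Lama5. Lama3 is the longer gene, and per 100 kb of gene and flank it had 2.57 peaks, beside 2.68 for Lama5.

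**Figure D3:**
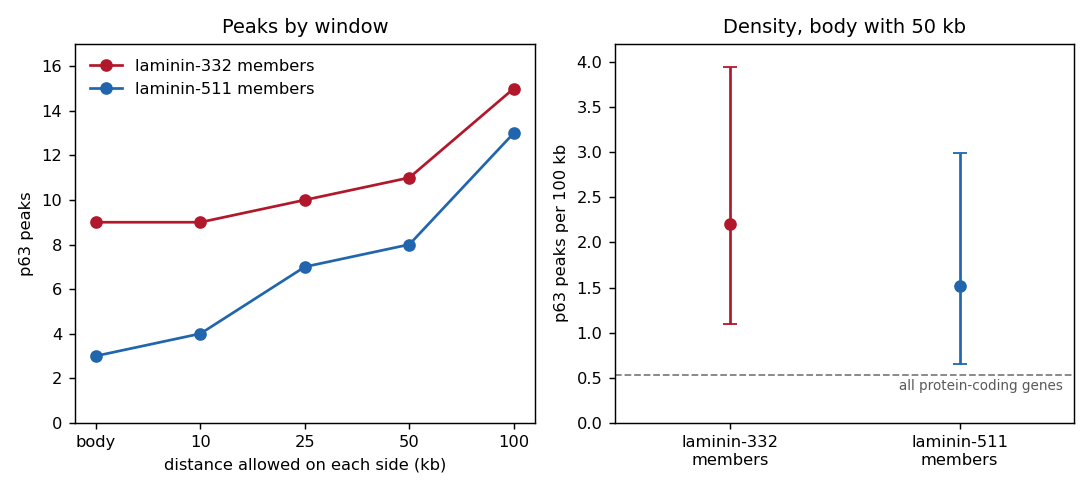
Left, the number of p63 peaks (y axis) at the laminin-332 genes Lama3 and Lamb3 and the laminin-511 genes Lama5, Lamb1 and Lamc1 as the allowed distance grows (x axis, kb): 9 against 3 in the gene bodies, 15 against 13 within 100 kb. Right, peaks per 100 kb of gene and 50 kb flanks, with exact 95% Poisson intervals as bars and the value of all protein-coding genes (0.532) as a dashed line.

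A further 5 laminin chain genes had no peaks. Lama1, Lama2, Lama4, Lamb2 and Lamc3 each had 0 peaks inside or within 50 kb, beside 40.7% of all protein-coding genes with a peak. With only 5 genes, a count of 0 allows a share of up to 52.2% (exact 95% Clopper-Pearson limit, counting error only). Their lengths ran from 10.7 kb for Lamb2 to 635.9 kb for Lama2, the alpha chain of muscle. Of genes with a length like that of Lama2, 50.7% had a peak. Only Lamc3 gained a peak within 100 kb, and it gained 1. Each of the 5 laminin genes described above had a peak.

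Among the genes that work with laminin, all 8 receptor and hemidesmosome genes had a peak, where 40.7% of all protein-coding genes did. They were Col17a1 with 11, Itga6 with 6, Itgb4 with 5, Itga3, Itgb1 and Dag1 with 4 each, Cd151 with 3 and Bcam with 2. Itga6 and Itgb4 encode the laminin-332 receptor of hemidesmosomes, and Itga3 a subunit of another laminin-binding integrin. Of 6 type IV collagen genes, which encode the collagen network of the membrane, 5 had a peak (83.3%, beside the same 40.7%). Col4a2 had 7 and its head-to-head partner Col4a1 had 4, while Col4a3, Col4a4 and Col4a6 had 1 each and Col4a5 had 0. Neighbours in this family share windows, so 1 peak can count for 2 genes. The single peaks of the adjoining Col4a3 and Col4a4 were both 185 bp wide and may be the same peak. No peak lay inside Col4a1 or within 10 kb of it.

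Linker and proteoglycan genes had a peak in 4 of 6 cases (66.7%, beside 40.7% of all protein-coding genes). Col18a1, the collagen that releases endostatin, had 8, Hspg2 (perlecan) 4, Col15a1 3 and Agrn (agrin) 2. Nid1 and Nid2, the nidogens that link laminin to type IV collagen, had 0. Of 6 partners of the Fraser complex, 3 had a peak (50.0%), a share near that of all protein-coding genes, with 5 at Vwa2 and 1 each at Frem3 and Grip1. Frem1, Npnt and Itga8 had 0. In the list of processing and folding genes, 4 of 6 had a peak (66.7%). Bmp1, a protease that trims laminin-332 and type VII collagen, had 5, Serpinh1, a collagen chaperone, had 3, and Tll1 and Mmp14 had 2 each, while Tll2 and Plod3 had 0. Ntn4, a laminin-like netrin, had 3. A peak counted for a pathway gene can be nearer to another gene. Bmp1 was the nearest protein-coding gene for 1 of its 5 peaks, and none lay inside it or within 10 kb. Vwa2 was the nearest for 1 of 5, Cd151 for 1 of 3 and Frem3 for 0 of 1. For Itgb4 it was 2 of 5, for Hspg2 2 of 4, and for Col15a1 and Serpinh1 1 of 3 each. Col4a2 was the nearest for 0 of its 7 peaks, although 3 lay inside it. Nearness was measured to the ends of genes. Col18a1 was the nearest for all 8 of its peaks, and Col4a1, Itga3 and Itgb1 for all 4 of theirs. Over these 38 genes 25 had a peak (65.8%, beside 40.7% of all protein-coding genes). Among genes of like length the share with a peak ran from 39.2% for Cd151 to 51.6% for Col4a5. The median count over the 38 genes was 2, beside 0 over all protein-coding genes and 2.5 over the 8 genes described.

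**Figure D4:**
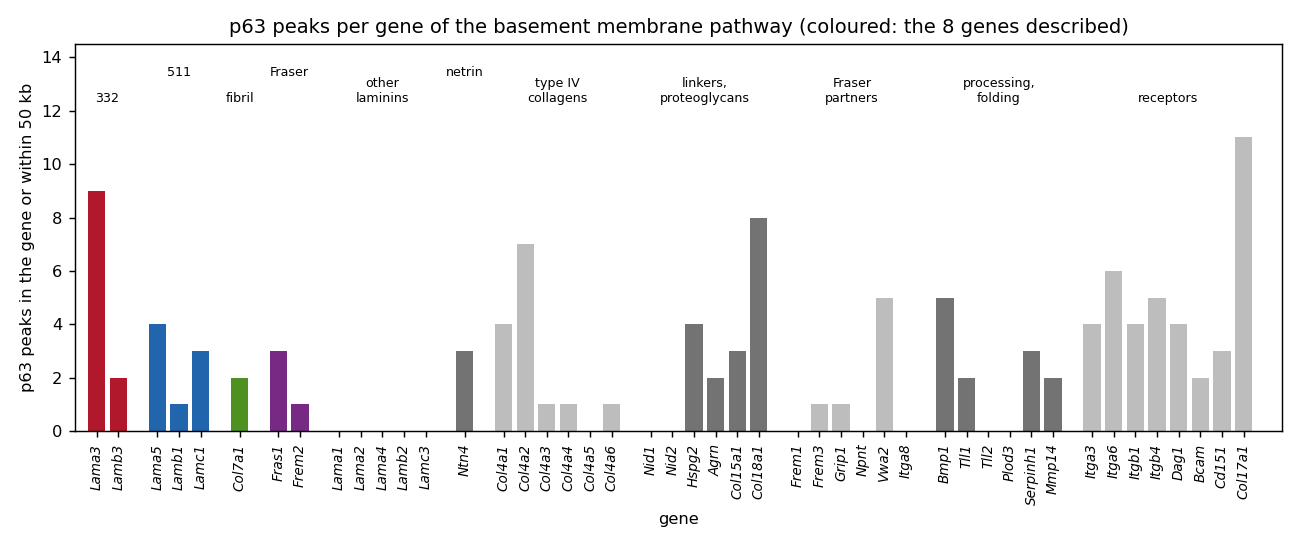
Number of p63 peaks inside each gene or within 50 kb (y axis) for the 8 genes described (coloured) and 38 other genes of the pathway (grey), grouped by role. The 9 peaks of Lama3 are exceeded by the 11 of Col17a1, and Lama1, Lama2, Lama4, Lamb2 and Lamc3 are at 0.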

How the data were processed

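The deposited list of p63 peaks was used. Per the labels it was made by IDR, which keeps peaks ranked alike in both p63 libraries. Bowtie 1.1.1 and SAMtools 1.1 are the tools, and mm10 the build, per the submitters' processing notes. Which peak caller and cutoffs were used is not given in the sources used here. IDR is meant to drop peaks of a single line, and where no peak is listed p63 may be absent or the reads too few.

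Starts were made 1-based. Gene extents came from the RefSeq table of GRCm38.p6, which includes predicted transcripts and gives no strand. Gene rows that ended before 3 Mb (except on Y) were taken as unplaced and left out (340 of 49939). Starts and strands came from the RefSeq promoter table. All 52 list entries matched by symbol. Counting used Python 3.11.15 and pandas 2.3.3 and was checked on simulated peaks. Poisson intervals used scipy 1.17.1.

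No test was run, because 1 list has no replicates. The named genes are all 8 genes, the other pathway genes and the nearest gene of each peak. One planned gene and the alternative that used it are not reported here. The members and lists were chosen with earlier results of these data known. Alternatives were windows of 0, 10, 25 and 100 kb, any overlap of 1 bp, only peaks of at least 305 bp, nearest genes only, joined sites and, added after seeing the data, distance from listed starts.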

Additional observations from a re-analysis of the deposited data

How the results depend on the processing

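No paired analysis was possible because the list joins both lines and holds no value per line; for the same reason neither library could be left out. The 25 peaks became 15 with gene bodies only and 14 with peaks of at least 305 bp. They were 18 within 10 kb, 23 within 25 kb, 37 within 100 kb and 19 when a peak counted only for its nearest gene. The 11 peaks of laminin-332 became 7 with the wider peaks and 6 as joined sites. The 8 of laminin-511 became 3 with gene bodies, 4 within 10 kb, 13 within 100 kb, 5 with the wider peaks and 5 as joined sites. The count of laminin-332 was above that of laminin-511 under each of these settings and with any overlap of 1 bp, where the counts stayed at 11 and 8. It was also above within 25 kb (10 and 7) and with nearest genes only (9 and 6). The share of protein-coding genes with a peak was 13.4% for gene bodies, 21.3% within 10 kb, 29.7% within 25 kb and 55.2% within 100 kb. Without the flanks Col7a1 and Frem2 had 0 peaks, and with only the wider peaks Lamb3, Fras1 and Frem2 had 0. Col7a1 also had 0 when only nearest genes counted. Outside the 50 kb limit the next peak lay 58.7 kb from Frem2, and just inside it 1 lay 43.8 kb from Lamc1. Counting within 50 kb of the listed starts changed no count for Lamb3, Lama5 and Lamb1, the laminin genes with such a start. This setting leaves out Lama3 and Lamc1, and the order was reversed, with 2 peaks for laminin-332 and 5 for laminin-511.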
